A study of Homo sapiens with 6 samples.

Results

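The members described here are the transcripts of the human mitochondrial genome, taken as every row of the deposited count table whose gene name begins with MT-. There were 37 such rows of 58735 in all: 13 mRNAs, 2 rRNAs and 22 tRNAs. RNA sequencing of Panc-1, a human epithelial line from a pancreatic cancer, gave 6 libraries after 72 h of co-culture, per the labels. In 3 libraries Panc-1 (genotype WT) shared its culture with cancer-associated fibroblasts, called CAF below. In the other 3 the fibroblasts overexpressed PAI-1, an inhibitor of plasminogen activators, and this group is called CAF-PAI-1. No library came from Panc-1 cultured alone, so that both groups share the co-culture, and the labels give neither the origin of the fibroblasts nor the way PAI-1 was overexpressed, nor how Panc-1 was parted from them before extraction. The control columns are named CAF-NC in the table, and no label explains NC. Replicates are called biological without more detail, so that p-values cover the variation among the deposited libraries, which may be technical.

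Mitochondrial DNA is a small circular genome that encodes core subunits of the respiratory chain and the RNAs needed to translate them. Both strands are copied by the polymerase POLRMT into long precursors, from which tRNAs are cut out and so release the mRNAs and rRNAs between them. Most of the mRNAs then receive a short poly(A) tail inside the organelle, and the LRPPRC and SLIRP proteins bind and stabilise them. Respiratory complexes I, III, IV and V are built from mitochondrial subunits together with nuclear-encoded partners, while complex II is nuclear-encoded throughout. MT-ND6, the only mRNA of the other strand, is known to lack a poly(A) tail in human cells, and mitochondrial rRNAs carry at most a few added adenines, so that their counts in libraries selected on poly(A) are not a measure of all their RNA.

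The sequences at the ends of the mRNAs show how this genome depends on its poly(A) tails. Of the 13 mRNAs, 6 stop in GENCODE release 29 (GRCh38) after only 1 or 2 bases of the last codon, T or TA, and the tail supplies the adenines that complete the stop codon. The other 7 end with a whole codon. The last 30 bases of 4 mRNAs to which the results return are given in the sense of the RNA, with the final codon or its part in capitals.
MT-CO2: tttgaaatagggcccgtatttaccctaTAG
MT-CO3: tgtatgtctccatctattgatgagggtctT
MT-ND1: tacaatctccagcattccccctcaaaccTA
MT-CYB: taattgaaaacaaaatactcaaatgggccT
MT-CO2 closes with a full TAG, MT-ND1 with TA, and MT-CO3 and MT-CYB with a single T.

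Neighbouring genes also overlap, which bears on how reads can be counted. MT-ATP8 occupies positions 8366 to 8572 of the mitochondrial chromosome (M) and shares its last 46 bases, from 8527 to 8572, with the start of MT-ATP6. MT-ND4L and MT-ND4 share 7 bases, from 10760 to 10766. The capitals mark the shared bases in the whole of MT-ATP8 and in the last 60 bases of MT-ND4L.
MT-ATP8: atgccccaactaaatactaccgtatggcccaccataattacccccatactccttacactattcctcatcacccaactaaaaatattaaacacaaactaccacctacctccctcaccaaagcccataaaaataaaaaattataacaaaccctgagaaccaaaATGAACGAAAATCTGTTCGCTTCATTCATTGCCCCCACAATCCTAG
MT-ND4L: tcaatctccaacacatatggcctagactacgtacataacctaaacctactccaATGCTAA
Each pair is carried on a single mature mRNA, so its members cannot be separated as RNA. The sources used here give neither the assignment of reads in a shared stretch nor the use of strand. For genes of either strand, reads of a transcript and of its antisense partner could therefore not be told apart.

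Library totals lay between 13628508 and 16006880 counts. The submitters' extraction text speaks of another line, Cal27, and of a drug, Stattic, while the sample titles name neither. The labelled cell type was therefore set against markers, which cannot show whether the drug was used. The epithelial keratins KRT8 and KRT18 were at 1013 and 580.1 CPM with CAF, EPCAM and CDH1 were low at 7.05 and 1.67 CPM, and the 6 squamous markers together had between 0 and 16 counts in a library. Of 8 defining fibroblast markers COL3A1 was detected at 5.21 and 6.42 CPM, and the other 7 (DCN, LUM, COL1A2, PDGFRA, PDGFRB, FAP, POSTN) together had 13 counts over the CAF libraries and 9 over the CAF-PAI-1 libraries. Of all 15 fibroblast markers, which include VIM and other genes that Panc-1 itself may express, 9 were under 1 CPM in every library, and the list summed to 2505 to 2721 CPM with CAF and 2818 to 2902 CPM with CAF-PAI-1. Epithelial markers summed to 1778 to 1887 CPM with CAF and 2042 to 2304 CPM with CAF-PAI-1. The part of both lists in the results that follow was not tested. CPM are counts brought to a common library size, here with TMM, edgeR's correction for library composition.

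Mitochondrial transcripts took a smaller share of the counts when the fibroblasts overexpressed PAI-1. They made up 5.53%, 5.81% and 5.92% of all counts in CAF replicates 1, 2 and 3, and 5.12%, 3.78% and 4.76% in CAF-PAI-1 replicates 1, 2 and 3. The groups did not overlap, and CAF-PAI-1 replicate 2 was far below the other libraries. The mean went from 5.75% ± 0.201 to 4.55% ± 0.695 (SD, n = 3 each, two-sided exact permutation p = 0.1). That is the smallest p that 3 libraries against 3 allow. Without CAF-PAI-1 replicate 2 the difference was -0.811 percentage points, against -1.20 with it. Counting error was small beside these differences, with 95% Wilson intervals such as 3.77% to 3.79% for CAF-PAI-1 replicate 2. Bulk RNA cannot tell fewer cells of a type from less RNA per cell.

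**Figure D1:**
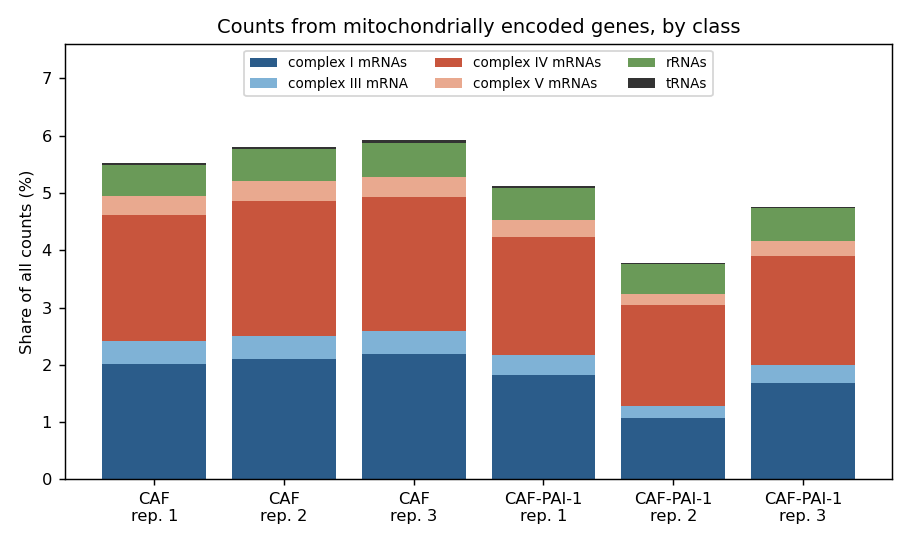
Share of all counts (%) from mitochondrially encoded genes in each of the 6 libraries, stacked by the complex that each mRNA serves, rRNAs and tRNAs. The CAF libraries reach 5.53% to 5.92%, CAF-PAI-1 replicates 1 and 3 reach 5.12% and 4.76%, and CAF-PAI-1 replicate 2 reaches 3.78%.

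Most of the difference in share lay in the mRNAs. They took 5.14% ± 0.175 of counts with CAF and 3.98% ± 0.665 with CAF-PAI-1 (SD, n = 3 each, exact permutation p = 0.1). The share of the 2 rRNAs was 0.574% ± 0.027 and 0.546% ± 0.028 (exact permutation p = 0.4), with overlapping groups. Relative to the mRNAs the rRNAs were thus higher with CAF-PAI-1. The log2 ratio of rRNA to mRNA counts was -3.17, -3.19 and -3.13 with CAF and -3.02, -2.66 and -2.88 with CAF-PAI-1 (difference 0.31, or 0.21 without CAF-PAI-1 replicate 2). The groups did not overlap in this ratio, and its exact permutation p of 0.1 became 0.167 after Benjamini-Hochberg adjustment over 5 such ratios. A ratio shows unequal change and does not say which of its sides moved.

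Levels between genes are compared per length, as CPM per kb of gene. MT-CO1, the catalytic core of complex IV, stood highest with CAF at 8224 ± 321 CPM per kb (SD, n = 3). MT-CO2, the subunit that takes electrons from cytochrome c, followed at 6947 ± 314, then MT-CO3 at 6433 ± 324 and MT-ND4, a proton-pumping subunit of complex I, at 6049 ± 346 CPM per kb. The ranges over the CAF libraries overlapped for MT-CO2 and MT-CO3 and for MT-CO3 and MT-ND4, but MT-CO1, MT-CO2, MT-CO3 and MT-ND4 stood in this order in each of the 3 CAF libraries. MT-ATP6, the proton channel subunit of complex V, was at 4797 ± 194, MT-ND1 at 3864 ± 172 and MT-CYB, the mitochondrial subunit of complex III, at 3472 ± 101 CPM per kb. Between 1587 ± 40.9 and 2739.8 ± 170.5 CPM per kb lay MT-ND3, MT-ND5, MT-ND6, MT-ND2 and MT-ND4L in rising order, in each CAF library as well. The rRNA MT-RNR2 was at 3193 ± 168 and MT-RNR1 at 662 ± 29.8 CPM per kb.

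The pairs that share an mRNA were counted at very different levels. MT-ATP8 was at 109 ± 3.90 CPM per kb, and MT-ATP6, on the same mRNA, had 44.2 times as much. MT-ND4 had 2.21 times as much as MT-ND4L. The values of MT-ATP8 and MT-ND4L, whose sequences are printed above, are therefore uncertain as levels. Comparisons of them between libraries are uncertain too, since the rows of a pair did not move alike. Against the mean of CAF-PAI-1 replicates 1 and 3, replicate 2 had 0.405 times the CPM for MT-ND4L and 0.583 for MT-ND4. It had 0.562 times for MT-ATP8 and 0.698 for MT-ATP6. The cause was not tested.

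**Figure D2:**
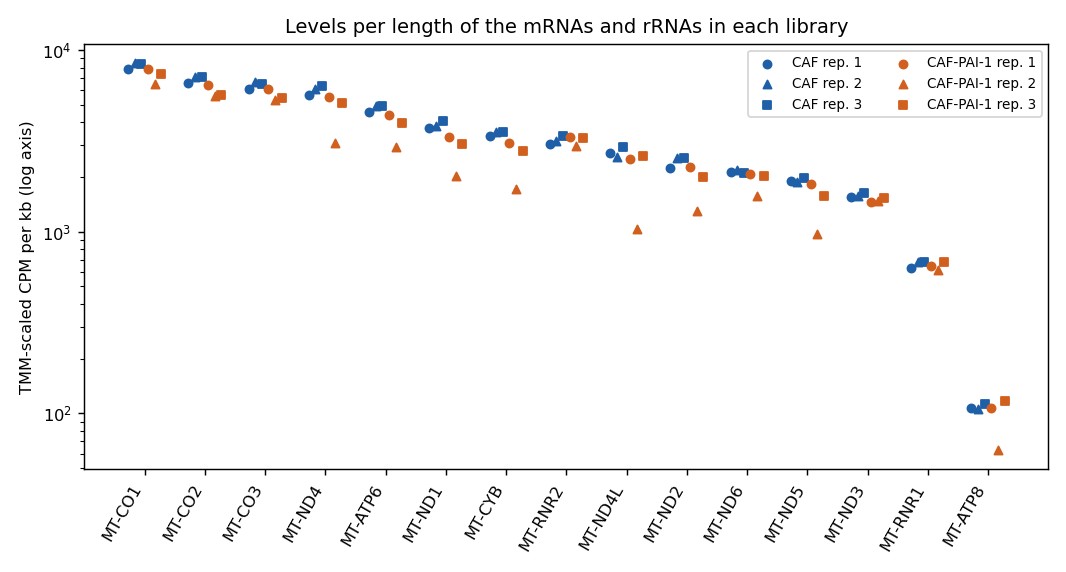
TMM-scaled CPM per kb of gene (log axis) of the 13 mRNAs and 2 rRNAs in each library, in order of the CAF mean, with CAF in blue, CAF-PAI-1 in orange and the replicate number as the marker shape. The orange triangles of CAF-PAI-1 replicate 2 lie below the other points for 12 of the 13 mRNAs, and MT-ATP8 lies far below all other genes shown.

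Few single transcripts passed the test between the groups. Of the 37 members, 27 passed the filter on low counts and were tested with edgeR over 14960 genes, where an adjusted p under 0.05 is called changed. With CAF-PAI-1 4 of the 27 (14.8%) fell, near the 15.0% of all tested genes that fell, and none rose, where 17.2% of all tested genes rose. At an unadjusted p under 0.05, 6 were lower and 0 higher. The median log2 fold change of the 27 was -0.25 and of the 13 mRNAs -0.35, beside -0.0015 over all genes tested. In 12 of 27 (44.4%) the groups did not overlap with CAF-PAI-1 lower, as in 21.1% of all tested genes, and in 0 with CAF-PAI-1 higher, as in 22.3%.

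The number of calls depended on which libraries were kept and on the fit. With each library left out in turn 2 to 9 members fell, most without CAF-PAI-1 replicate 2, where 1817 to 2227 of all genes fell. Leaving out CAF-PAI-1 replicate 2 gave 9 of 29 lower (31%) and 0 higher, where 14.4% of all genes tested were then lower and 15.8% higher, with a median of -0.17 over the 13 mRNAs. Without this library the falls were thus smaller, and so was the spread. It is singled out here because its mitochondrial values differ, and leaving it out narrows the spread of these same genes. The p-values without it that follow are therefore likely too small and serve as description only. DESeq2 called 4 lower and 0 higher, beside 13.4% and 15.6% of all genes. Limma-voom called 14 lower and 0 higher, beside 14.7% and 17.0%, and edgeR without robust estimation 12 and 0, beside 14.9% and 17.1%. Scaling by library size alone gave 7 lower, beside 21.2% lower and 12.3% higher of all genes, and no filter on low counts also gave 7, beside 6.72% and 8.35%. Scaled to the sum of the 13 mRNAs themselves, 0 fell and 0 rose, where 1.42% of all genes fell and 25.2% rose. A fall that the 13 mRNAs share cannot appear on that scale, since their own sum sets it. The SE of every member tested was also at least 0.17 there, so that small changes could not be called.

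The 3 mRNAs of complex IV, MT-CO1, MT-CO2 and MT-CO3, all fell. On the scale of the 13 mitochondrial mRNAs they had log2 fold changes of 0.14, 0.082 and 0.13 and were not called. They make up 44.3% to 54.6% of the counts that form this scale. Their SE on it was 0.17 each, so that changes as small as theirs could not have been called there. This complex, cytochrome c oxidase, passes electrons to oxygen, and its mitochondrial genes encode the 3 core subunits. MT-CO2 (ENSG00000198712, positions 7586 to 8269) had 4504, 4893 and 4858 CPM in CAF replicates 1, 2 and 3 and 4378, 3805 and 3866 CPM in the CAF-PAI-1 replicates. The groups did not overlap, and CAF-PAI-1 replicates 2 and 3 were close to each other. Its mean went from 4752 ± 215 to 4016 ± 314 CPM (SD, n = 3 each; log2 fold change of -0.24, SE 0.058, adjusted p = 0.00146 by edgeR). Without CAF-PAI-1 replicate 2 it still fell (log2 fold change of -0.21, SE 0.052, adjusted p = 0.000754).

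MT-CO3 had 4765, 5263 and 5102 CPM with CAF and 4808, 4153 and 4298 CPM with CAF-PAI-1. CAF-PAI-1 replicate 1 lay within the range of the CAF libraries. MT-CO3 fell (log2 fold change of -0.19, SE 0.059, adjusted p = 0.0117 by edgeR). MT-CO1 had 12116, 13039 and 12888 CPM with CAF and 12168, 9996 and 11387 CPM with CAF-PAI-1, and here too CAF-PAI-1 replicate 1 lay within the CAF range (log2 fold change of -0.18, SE 0.062, adjusted p = 0.0225 by edgeR). The call for MT-CO1 was lost without CAF-PAI-1 replicate 2 (adjusted p = 0.107), and both calls were lost without CAF-PAI-1 replicate 3, CAF replicate 2 or CAF replicate 3, with adjusted p from 0.053 to 0.11.

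The 7 mRNAs of complex I, the entry point of electrons from NADH, did not pass the main edgeR test over all 6 libraries. In 5 of them the log2 fall was nonetheless larger than in any mRNA of complex IV. With all libraries, limma-voom and edgeR without robust estimation called MT-ND1, MT-ND4, MT-ND2 and MT-ND5 lower (adjusted p from 0.000285 to 0.0116). Limma-voom also called MT-ND4L and MT-ND6 (adjusted p = 0.0256 and 0.0339), and neither fit called MT-ND3. MT-ND1, a membrane subunit next to the quinone site, had 3544, 3666 and 3870.2 CPM in CAF replicates 1, 2 and 3 and 3172, 1929 and 2906 CPM in the CAF-PAI-1 replicates. Every CAF-PAI-1 library was below every CAF library, and CAF-PAI-1 replicate 2 was far below the other CAF-PAI-1 libraries. With all libraries the change was -0.47 (SE 0.21, adjusted p = 0.187 by edgeR). Without that library, which is singled out by these same values, it was -0.29 (SE 0.051, adjusted p = 1.94e-06) and was called.

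MT-ND4 had 7815, 8443 and 8749.5 CPM with CAF and 7615, 4265 and 7021 CPM with CAF-PAI-1. Again the groups did not overlap, with replicate 2 of CAF-PAI-1 alone far down (log2 fold change of -0.40, SE 0.25, adjusted p = 0.314 by edgeR). Without it MT-ND4 was called lower (log2 fold change of -0.19, SE 0.053, adjusted p = 0.00247). MT-ND5 and MT-ND2 encode pumping subunits as well. MT-ND5 had 3431, 3396 and 3588 CPM with CAF and 3329, 1758 and 2850.4 CPM with CAF-PAI-1, with no overlap of the groups. MT-ND2 had 2348, 2662 and 2639 CPM with CAF and 2362, 1356 and 2093 CPM with CAF-PAI-1, where CAF-PAI-1 replicate 1 lay at the lower end of the CAF libraries. Their log2 fold changes of -0.39 and -0.40 were not called by the main edgeR test over all libraries. They became -0.17 and -0.20 without CAF-PAI-1 replicate 2 (adjusted p = 0.00647 and 0.00188 by edgeR).

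MT-ND4L, which shares its mRNA with MT-ND4, showed the widest spread. It had 808, 766 and 867 CPM with CAF and 745, 308 and 774 CPM with CAF-PAI-1. CAF-PAI-1 replicates 1 and 3 lay next to the CAF libraries and replicate 2 was below all others by a wide margin (log2 fold change of -0.42, SE 0.40, adjusted p = 0.508 by edgeR). MT-ND3 differed from the rest of complex I in this respect. It had 539.9, 542 and 565 CPM with CAF and 504, 509 and 527 CPM with CAF-PAI-1, so that CAF-PAI-1 replicate 2 was not set apart, and it did not pass (log2 fold change of -0.096, SE 0.052, adjusted p = 0.164 by edgeR). MT-ND6, the light-strand mRNA, had 1116, 1153 and 1111 CPM with CAF and 1095, 831 and 1062 CPM with CAF-PAI-1 (log2 fold change of -0.18, SE 0.078, adjusted p = 0.0972 by edgeR). It did not pass either, with or without CAF-PAI-1 replicate 2 (adjusted p = 0.322 without it).

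MT-CYB encodes cytochrome b, which carries the quinone sites of complex III. It had 3828, 4028 and 4029 CPM in CAF replicates 1, 2 and 3 and 3514, 1970.2 and 3160.0 CPM in the CAF-PAI-1 replicates. The groups did not overlap, and CAF-PAI-1 replicate 2 was the lowest by far. The change was -0.46 (SE 0.24, adjusted p = 0.247 by edgeR), and -0.25 (SE 0.051, adjusted p = 2.81e-05) without that library. In all libraries MT-CYB was called lower by limma-voom and by edgeR without robust estimation (adjusted p = 0.000932 and 0.00211).

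For complex V, the ATP synthase, MT-ATP6 had 3115, 3345 and 3342 CPM with CAF and 2989, 1989 and 2711 CPM with CAF-PAI-1. The groups did not overlap, and the change was called only without CAF-PAI-1 replicate 2 or CAF-PAI-1 replicate 1 among the libraries left out in turn. Its log2 fold change was -0.35 in all libraries (SE 0.17, adjusted p = 0.193 by edgeR), -0.20 without the former (adjusted p = 0.000891) and -0.48 without the latter (adjusted p = 0.0235). Limma-voom and edgeR without robust estimation called MT-ATP6 lower in all libraries (adjusted p = 0.0011 and 0.00265). MT-ATP8, a small subunit of the same complex, had 22.2, 21.9 and 23.4 CPM with CAF and 22.1, 12.98 and 24.1 CPM with CAF-PAI-1. CAF-PAI-1 replicate 2 was again low, the other 5 libraries were alike, and the gene did not pass (log2 fold change of -0.18, SE 0.18, adjusted p = 0.48 by edgeR).

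The rRNAs of the mitochondrial ribosome were level between the groups within their spread. MT-RNR2, the large subunit rRNA, had 4735, 4947 and 5254 CPM with CAF and 5154, 4627 and 5146 CPM with CAF-PAI-1 (log2 fold change of -0.00091, SE 0.057, adjusted p = 0.993 by edgeR). MT-RNR1, of the small subunit, had 598, 649 and 646 CPM with CAF and 616, 590.5 and 646 CPM with CAF-PAI-1 (log2 fold change of -0.032, SE 0.054, adjusted p = 0.695 by edgeR). In both the groups overlapped, and CAF-PAI-1 replicate 2 was the lowest library by a small margin. The log2 ratio of MT-RNR2 to MT-RNR1 differed by 0.031 between groups (exact permutation p = 0.5, n = 3 each), with overlap.

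**Figure D3:**
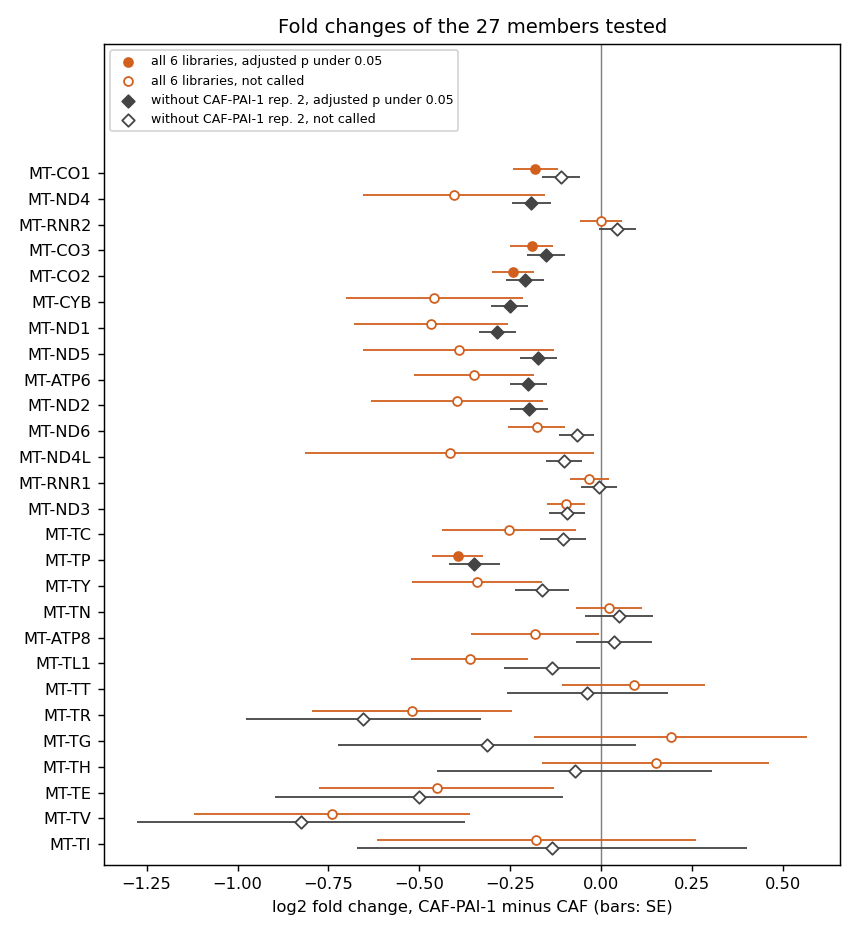
Log2 fold change of CAF-PAI-1 minus CAF with its SE for the 27 members tested, in the order of the deposited table, from all 6 libraries (orange circles) and without CAF-PAI-1 replicate 2 (grey diamonds), filled where the edgeR adjusted p was under 0.05. Without that library the values of most mRNAs move toward 0 and their bars shorten, and 8 mRNAs and MT-TP are filled.

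The tRNAs, of 59 to 75 bases, were counted at low levels and unevenly. The libraries were selected on poly(A) and the use of strand is not given, so that these counts are not a measure of tRNA levels. Of 22, 12 passed the filter, and the other 10 had at most 11 counts in any library. MT-TS2 had 0 counts in all 6, which allows up to 3 counts or 0.187 to 0.22 CPM per library, for counting error only. Between 89.6% and 91.4% of the tRNA counts of each library came from only 4 rows, MT-TC, MT-TP, MT-TY and MT-TN. These 4 genes are among the 8 tRNA genes of the minus strand in the annotation, where 14 lie on the plus strand. The counts of all tRNA rows together kept pace with those of the mRNAs. The log2 ratio of tRNA to mRNA counts differed by 0.038 (exact permutation p = 0.5, n = 3 each), and the groups overlapped.

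MT-TP, the proline tRNA, was the only tRNA row called in the main edgeR test. It occupies positions 15956 to 16023 on the minus strand of chromosome M (ENSG00000210196) and is printed here in full because it was called in every fit but those scaled to the mitochondrial mRNAs.
MT-TP: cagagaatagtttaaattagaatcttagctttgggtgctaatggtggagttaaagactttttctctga
It had 69.5, 72.2 and 70.7 CPM in CAF replicates 1, 2 and 3 and 58.9, 49.95 and 52.7 CPM in the CAF-PAI-1 replicates. The groups did not overlap, and CAF-PAI-1 replicate 2 was only slightly below replicate 3. The mean went from 70.8 ± 1.33 to 53.8 ± 4.56 CPM (SD, n = 3 each; log2 fold change of -0.39, SE 0.070, adjusted p = 3.61e-05 by edgeR), with a log2 fold change of -0.35 (adjusted p = 2.85e-05) without CAF-PAI-1 replicate 2. MT-TC, the cysteine tRNA, was the tRNA row with the most counts. It had 131, 153 and 166 CPM with CAF and 141, 97.4 and 138 CPM with CAF-PAI-1 and did not pass (log2 fold change of -0.25, SE 0.18, adjusted p = 0.384 by edgeR).

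The other tRNAs tested did not pass the main edgeR test over all 6 libraries. Limma-voom and edgeR without robust estimation called MT-TC and MT-TY lower (adjusted p from 0.0127 to 0.0404). MT-TY, for tyrosine, had 54.2, 56.03 and 61.8 CPM with CAF and 52.4, 32.6 and 50.2 CPM with CAF-PAI-1 (log2 fold change of -0.34, SE 0.18, adjusted p = 0.211 by edgeR), and MT-TL1, the leucine tRNA next to MT-RNR2, had 14.4, 14.1 and 14.7 CPM with CAF and 13.6, 7.18 and 12.7 CPM with CAF-PAI-1 (log2 fold change of -0.36, SE 0.16, adjusted p = 0.0924 by edgeR). In both the CAF-PAI-1 libraries lay below all CAF libraries, with replicate 2 the lowest. MT-TN, for asparagine, had 28.5, 31.3 and 37.3 CPM with CAF and 31.9, 31.3 and 34.97 CPM with CAF-PAI-1, and the groups overlapped (log2 fold change of 0.022, SE 0.092, adjusted p = 0.882 by edgeR). MT-TT, MT-TR, MT-TG, MT-TH, MT-TE, MT-TV and MT-TI had means under 5 CPM in both groups and log2 fold changes from -0.74 (MT-TV, SE 0.38) to 0.19 (MT-TG, SE 0.37). Their SEs ran from 0.20 in MT-TT to 0.44 in MT-TI, and at this depth a change of the size seen in MT-TP was not detectable in most of them. The 10 members that were not tested, MT-TS1, MT-TD, MT-TM, MT-TK, MT-TQ, MT-TL2, MT-TA, MT-TF, MT-TW and MT-TS2, had 176 counts in all libraries together.

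CAF-PAI-1 replicate 2 stood apart in the make-up of the mitochondrial RNA as well as in its amount. Set against the mean of CAF-PAI-1 replicates 1 and 3, its CPM was 0.405 times as high for MT-ND4L, 0.562 for MT-ATP8, 0.569 for MT-ND5, 0.583 for MT-ND4 and 0.59 for MT-CYB. It was 0.609 times as high for MT-ND2, 0.635 for MT-ND1, 0.698 for MT-ATP6 and 0.77 for MT-ND6. The mRNAs of complex IV lay higher, from 0.849 for MT-CO1 to 0.923 for MT-CO2, and MT-ND3 was at 0.988. MT-RNR2 and MT-RNR1 were at 0.898 and 0.936. Across 14926 nuclear genes tested the same ratio had a median of 1.00 and ran from 0.752 at the 5th percentile to 1.31 at the 95th, and 8 of the 13 mRNAs were below that lower bound.

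Complex I took 40.9%, 40.3% and 41.4% of mitochondrial mRNA counts in the CAF libraries and 40.3%, 33.3% and 40.4% in the CAF-PAI-1 libraries. Complex IV took 44.6%, 45.3% and 44.3% with CAF and 45.7%, 54.6% and 45.8% with CAF-PAI-1. In both shares CAF-PAI-1 replicate 2 stood far from the other 5 libraries, which were close together. The share of complex III was 7.98%, 7.86% and 7.80% with CAF and 7.53%, 5.99% and 7.40% with CAF-PAI-1, again lowest in replicate 2. The log2 ratio of complex I to complex IV counts differed by -0.23 between groups, but by -0.052 without this library (exact permutation p = 0.1 with it, n = 3 each, adjusted p = 0.167 over the 5 ratios). The ratio of MT-ND6 to the other 12 mRNAs differed by 0.13 on the log2 scale, and by 0.11 without it (exact permutation p = 0.1 with it, n = 3 each, adjusted p = 0.167).

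CAF-PAI-1 replicates 1 and 3 alone were below the CAF libraries by less, and more evenly. Among the mRNAs and rRNAs their mean was lowest against the CAF mean for MT-ND1, at 0.823 times, and then 0.842 for MT-CYB, 0.867 for MT-CO2, 0.872 for MT-ATP6, 0.874 for MT-ND2 and 0.878 for MT-ND4. It lay between 0.89 and 0.94 for MT-ND5, MT-CO3, MT-CO1, MT-ND4L and MT-ND3. At the other end it was 0.957 times for MT-ND6, 0.999 for MT-RNR1, 1.03 for MT-ATP8 and 1.03 for MT-RNR2.

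**Figure D4:**
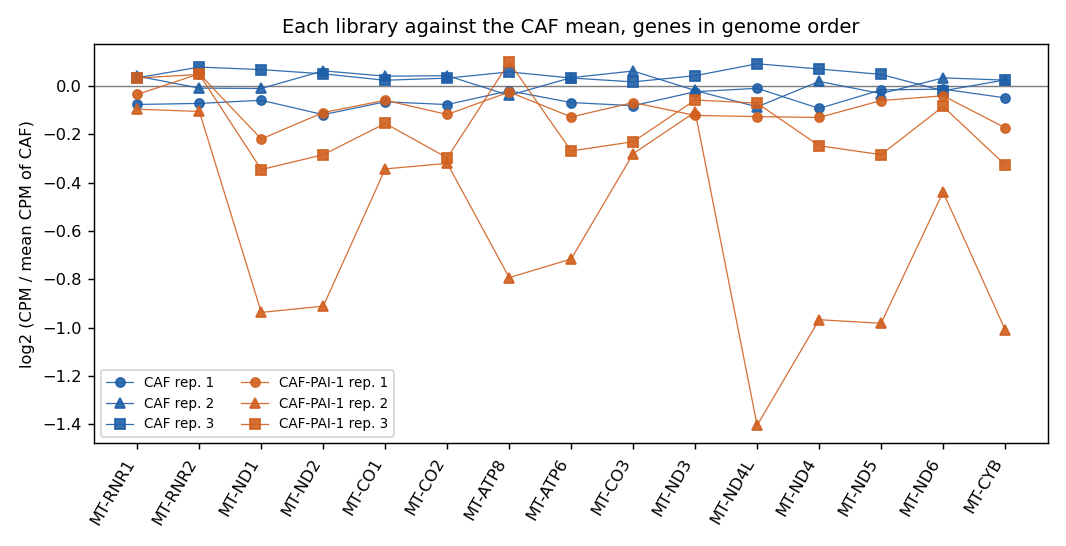
Log2 ratio of TMM-scaled CPM to the mean of the CAF libraries for the 13 mRNAs and 2 rRNAs in genome order, with 1 line per library. CAF-PAI-1 replicate 2 drops furthest at MT-ND4L and stays near the other libraries at the rRNAs and MT-ND3, while CAF-PAI-1 replicates 1 and 3 are lowest at MT-ND1 and MT-CYB.

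Measures of the library that are independent of these genes were compared for this reason. Across nuclear genes, the deviation of a library from the mean of the others in its group went with transcript length at a Spearman rho of -0.23 in CAF-PAI-1 replicate 2, with 0.20 and 0.04 in replicates 1 and 3 and -0.12 to 0.07 in the CAF libraries. Genes are not independent replicates, and libraries of a group share the mean they are set against. Over the 13 mitochondrial mRNAs the ratio of replicate 2 to replicates 1 and 3 went with length at rho = -0.033 (n = 13, all from the same libraries). Genes with at least 1 CPM numbered 13821 in this library and 13651 to 14034 in the others. The part of transcript length and of this library's other differences in the mitochondrial values was not tested.

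RNAs that normally lack a poly(A) tail and RNAs kept in the nucleus were measured beside them. The 94 rows of histone and other non-polyadenylated RNAs summed to 202 to 218 CPM with CAF and 203 to 226 CPM with CAF-PAI-1, and the groups overlapped. Of the 22 tested 4 fell (18.2%, beside 15.0% of all tested genes) and 3 rose (13.6%, beside 17.2%). HIST2H2BC and HIST2H2BD fell, with -0.59 and -0.79 and HIST1H2BK and HIST1H4H rose, with 0.24 and 0.52 on the log2 scale (edgeR adjusted p from 0.0034 to 0.0178). Of the nuclear-retained RNAs, NEAT1, the scaffold of paraspeckles, and MEG3 rose by 0.44 and 0.36 (adjusted p = 0.000744 and 0.00643 by edgeR), while MALAT1 and KCNQ1OT1 had 0.024 and 0.13 and did not pass. Neither NEAT1 nor MEG3 was called without CAF-PAI-1 replicate 2 (adjusted p = 0.14 and 0.119).

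Nuclear copies of mitochondrial genes can take up reads of the true genes. Of 407 such rows in the table, 3 passed the filter. MTND2P28, a copy of MT-ND2, had 127, 121 and 139 CPM with CAF and 119.7, 59.1 and 103 CPM with CAF-PAI-1, so that CAF-PAI-1 replicate 2 was the lowest, as for MT-ND2 itself. MTATP6P1 had 107, 109 and 135 CPM with CAF and 119.8, 93.3 and 142 CPM with CAF-PAI-1, and MTCO1P12 had 26.8, 28.9 and 30.3 CPM with CAF and 29.7, 24.8 and 27.9 CPM with CAF-PAI-1. The groups overlapped in the latter pair and not in MTND2P28. None was called, with log2 fold changes of -0.45, 0.018 and -0.057 (edgeR adjusted p from 0.322 to 0.961). Beside MT-ND2 at 2549.7 CPM with CAF, the copy at 129 CPM was small, and no source used here says how reads were divided between them. Without CAF-PAI-1 replicate 2, MTND2P28 was called lower (log2 fold change of -0.22, adjusted p = 0.00381), as MT-ND2 was.

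Nuclear genes for the copying, processing and stability of mitochondrial RNA rose more often than they fell, while none of the mitochondrial mRNAs rose. Of 37 genes in this list, all tested, 13 rose (35.1%, where 17.2% of all tested genes did) and 1 fell (2.70%, where 15.0% did), with a median log2 fold change of 0.078. When libraries were scaled by their size alone 6 rose (16.2%, beside 12.3% of all genes) and 4 fell (10.8%, beside 21.2%). DESeq2 called 8 higher, where 15.6% of all genes rose. Leaving out each library in turn gave 7 to 12 higher, fewest without CAF replicate 3, where 2124 to 2446 of all genes rose. FASTKD2, an RNA-binding protein needed for the mitochondrial ribosome, rose from 36.01 ± 2.19 to 53.1 ± 4.58 CPM (SD, n = 3 each; log2 fold change of 0.56, SE 0.079, adjusted p = 7.37e-07 by edgeR). TWNK, the helicase of mitochondrial DNA replication, rose from 34.6 ± 2.33 to 49.2 ± 1.13 CPM (log2 fold change of 0.51, SE 0.076, adjusted p = 2.65e-06 by edgeR). MGME1, a nuclease that processes mitochondrial DNA ends, was the gene that fell, from 56.8 ± 2.07 to 44.3 ± 3.73 CPM (log2 fold change of -0.36, SE 0.074, adjusted p = 0.000276 by edgeR).

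The central factors of this list showed small differences. POLRMT had 55.6, 54.01 and 59.2 CPM with CAF and 61.8, 55.2 and 60.7 CPM with CAF-PAI-1 (log2 fold change of 0.076, SE 0.070, adjusted p = 0.445 by edgeR). TFAM, which packs mitochondrial DNA and starts its transcription, had 77.4, 76.5 and 75.02 CPM with CAF and 78.2, 81.8 and 77.1 CPM with CAF-PAI-1 (log2 fold change of 0.050, SE 0.063, adjusted p = 0.587 by edgeR). In both genes the groups overlapped. LRPPRC went from 409 ± 7.41 to 438 ± 8.23 CPM and did not pass (log2 fold change of 0.099, SE 0.051, adjusted p = 0.147 by edgeR), and its partner SLIRP went from 24.1 ± 0.877 to 28.2 ± 1.22 CPM and was just under the threshold (log2 fold change of 0.23, SE 0.089, adjusted p = 0.049 by edgeR). The call for SLIRP was lost without CAF-PAI-1 replicate 2 (adjusted p = 0.0857). The other genes that rose, named after their values were seen, were TRMT10C, RNASEH1, GRSF1, SSBP1, TFB2M, MTPAP, the mitochondrial poly(A) polymerase, NSUN4, TBRG4, ELAC2, which cuts tRNA ends, and PNPT1, an RNA-degrading exonuclease, by 0.16 to 0.48 on the log2 scale.

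Regulators of mitochondrial biogenesis went both ways. Of 13 tested, 4 rose (30.8%, where 17.2% of all tested genes did) and 2 fell (15.4%, where 15.0% did). Without CAF-PAI-1 replicate 2, 4 rose and 4 fell (30.8% each, beside 15.8% and 14.4% of all genes). The values that follow are from all libraries. PPRC1, a coactivator of the PGC-1 family, rose from 101 ± 3.95 to 167 ± 5.89 CPM (log2 fold change of 0.72, SE 0.058, adjusted p = 5.55e-12 by edgeR) and GABPB1, a subunit of the factor NRF-2, from 33.7 ± 1.05 to 46.1 ± 0.9 CPM (log2 fold change of 0.46, SE 0.075, adjusted p = 1.28e-05 by edgeR). PPARA, a nuclear receptor for fatty acids, fell by 0.67 and YY1 by 0.25 on the log2 scale (adjusted p = 1.81e-05 and 0.000922). ESRRA, an orphan receptor that acts on respiratory genes, rose by 0.32 (adjusted p = 0.000437). PPARGC1A, the best-known coactivator of the family, was scarce at 3.27 and 2.49 CPM and did not pass (log2 fold change of -0.39, SE 0.23, adjusted p = 0.207 by edgeR), and NRF1 had 0.078 and did not pass.

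**Figure D5:**
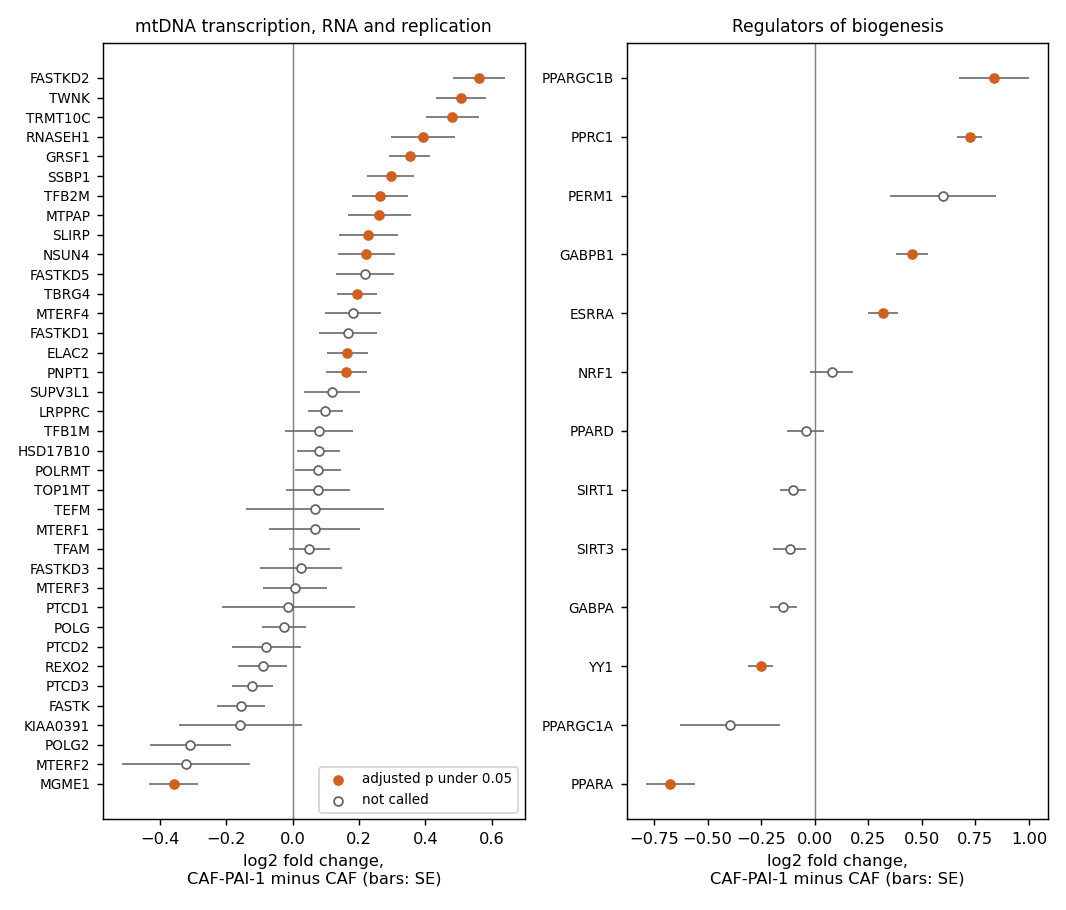
Log2 fold change of CAF-PAI-1 minus CAF with its SE for 37 nuclear genes of mitochondrial DNA and RNA handling (left) and 13 regulators of biogenesis (right), filled where the edgeR adjusted p was under 0.05. On the left 13 genes are filled above 0 and MGME1 below it, and on the right PPARGC1B, PPRC1, GABPB1 and ESRRA are filled above 0 and YY1 and PPARA below it.

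The nuclear-encoded partners of the mitochondrial subunits changed in few cases over all 6 libraries. The list for complexes I, III, IV and V was drawn by gene name, and may hold genes that are not structural subunits. Of its 77 tested genes, 2 fell (NDUFA4 and NDUFA2) and 3 rose (COX7A2L, NDUFB9 and NDUFA4L2), or 6.49% against 32.2% of all tested genes, with a median of 0.0074. Without CAF-PAI-1 replicate 2, 12 fell (15.6%, near the 14.4% of all genes then) and 2 rose. With library size alone 12 also fell (15.6%, where 21.2% of all genes did) and none rose. The smallest adjusted p belonged to COX7A2L, at 0.23 (SE 0.064), while NDUFA4 had -0.17 (SE 0.057). Proteins of the mitochondrial ribosome rose in 21 of 78 tested and fell in 2, with MRPS30 at 0.45, MRPS12 at 0.31 and MRPL53 and MRPL23 at -0.74 and -0.31 on the log2 scale. The 21 are 26.9% of the list, where 17.2% of all tested genes rose, and the 2 are 2.56%, where 15.0% fell. Without CAF-PAI-1 replicate 2, 15 rose (19.2%, beside 15.8% of all genes) and 1 fell (1.28%, beside 14.4%).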

How the data were processed

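Per the labels, libraries of Panc-1 co-cultures were made with oligo-dT beads, which select poly(A) RNA. The authors deposited 1 table of whole-number counts per gene, and each of its 6 sample columns was used. BWA, RSEM and Bowtie2 are listed with the build hg19, without role or version, per the submitters' processing notes, and the counting step is not stated there. All 58735 gene identifiers occur in GENCODE release 29 on GRCh38. Positions, lengths and sequences come from that release and serve to identify genes, and may differ from those used in alignment.

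The test was edgeR's quasi-likelihood fit (version 4.0.16, R 4.3.3) with filterByExpr at a minimum count of 10 and a minimum total of 15, TMM, robust estimation and no covariates. Benjamini-Hochberg adjustment ran over all genes tested. SE is the log2 fold change without shrinkage over the root of F. The code was tested on simulated data. Shares and ratios were compared by exact permutation. Alternatives were DESeq2 1.42.0, limma-voom (limma 3.58.1), other scalings and filters, a replicate block and each library left out. Members and lists were chosen with earlier results of these data known. Every member is named, and of each nuclear list the genes with the 2 smallest p per direction beside a few central ones. Replicates of a group differed beyond sampling noise (chi-square per degree of freedom 2.58 to 9.51), so none was merged. The highest values, 9.51 and 6.63, were those of CAF-PAI-1 replicate 2 with replicates 1 and 3. The other pairs lay between 2.58 and 3.72.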

Additional observations from a re-analysis of the deposited data

How the results depend on the processing

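Of the members tested, 4 fell under RLE scaling, TMM without the mitochondrial genes, a mean of at least 10 CPM and DESeq2. Over all genes, 1921 to 2285 fell and 2106 to 2557 rose in these fits. The count of members that fell was 7 with library size alone, which turned the balance of all genes from 2571 higher and 2239 lower to 1844 and 3176. It was 7 with no filter on low counts, 12 without robust estimation and 14 with limma-voom, and from 2 to 9 when each library was left out in turn: 4 without CAF replicate 1, 2 without CAF replicate 2, CAF replicate 3 or CAF-PAI-1 replicate 3, 7 without CAF-PAI-1 replicate 1 and 9 without CAF-PAI-1 replicate 2. No member rose under any of these, while over all genes 1817 to 2227 fell and 2124 to 2446 rose with a library left out. MT-CO2 and MT-TP were called lower under all of them. When libraries were scaled to the sum of the 13 mitochondrial mRNAs, a scale on which the median of all genes shifts by 0.32, 0 fell and 0 rose, and without CAF-PAI-1 replicate 2 as well, an alternative chosen after seeing the data, 0 fell and 1 rose (MT-RNR2). The cause of these changes was not tested. On the scale of the 13 mRNAs a fall that they share cannot appear, so that signs there are relative to their sum.

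Signs turned on that scale for MT-CO1 0.14, MT-RNR2 0.32, MT-CO3 0.13, MT-CO2 0.082, MT-ND6 0.13, MT-RNR1 0.30, MT-ND3 0.24, MT-TC 0.047, MT-ATP8 0.097 and MT-TI 0.12, and without CAF-PAI-1 replicate 2 for MT-CO1 0.064, MT-RNR2 0.22, MT-CO3 0.021, MT-ND6 0.11, MT-ND4L 0.074, MT-RNR1 0.17, MT-ND3 0.083, MT-TC 0.073, MT-TY 0.012, MT-ATP8 0.21, MT-TL1 0.037, MT-TG -0.16 and MT-TI 0.040 (log2). On the usual scale they turned for members that were not called: MT-RNR2 0.045, MT-ATP8 0.035, MT-TT -0.037, MT-TG -0.31 and MT-TH -0.073 without CAF-PAI-1 replicate 2, MT-TN -0.063 and MT-TT -0.040 without CAF replicate 1, MT-TN -0.00074 without CAF replicate 2, MT-RNR2 0.040 without CAF replicate 3, MT-TN -0.028 without CAF-PAI-1 replicate 3, MT-TN -0.044 with library size alone, MT-TN -4.9e-05 with a mean of at least 10 CPM, MT-RNR2 0.0085 with no filter and MT-TG -0.015 with limma-voom. With each library left out in turn, the log2 fold change ran from -0.035 to 0.045 for MT-RNR2, -0.35 to 0.035 for MT-ATP8, -0.063 to 0.13 for MT-TN, -0.040 to 0.25 for MT-TT, -0.31 to 0.60 for MT-TG and -0.073 to 0.28 for MT-TH. The share of counts from mitochondrial genes stayed lower in each alternative, from -1.48 to -0.811 percentage points with a library left out and -0.959 against the effective library size, and no exact test could pass 0.05. With each library left out, 0 to 12 nuclear-encoded subunits fell and 2 to 6 rose, where the main fit tested 77. The counts were 0 to 2 and 15 to 22 for proteins of the mitochondrial ribosome (78 tested in the main fit). They were 2 to 4 and 4 to 4 for regulators (13 tested), and 1 to 4 and 1 to 3 for RNAs without a poly(A) tail (22 tested). Without CAF-PAI-1 replicate 2, 15.6% of the subunits, 1.28% of the ribosomal proteins and 30.8% of the regulators fell, beside 14.4% of all genes. In that fit 2 subunits, 19.2% of the ribosomal proteins and 30.8% of the regulators rose, beside 15.8%. These ranges alone do not set a list apart from other genes.

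Same-numbered libraries of the groups hardly deviated together (correlations 0.0023 to 0.012 over genes). CAF-PAI-1 replicate 1 correlated best with CAF replicate 3, while CAF-PAI-1 replicates 2 and 3 correlated best with the CAF libraries of the same number. Correlations so near 0 do not decide whether the numbers pair the libraries. With the replicate block 6 members fell, MT-TY and MT-TL1 in addition, where 2361 of all genes fell and 2708 rose. The paired exact permutation p of the share was 0.25, the smallest possible.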
